A study of Mus musculus with 4 samples.

Results

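The immunoglobulin heavy (Igh), kappa (Igk) and lambda (Igl) loci and the T cell receptor beta (Trb) and gamma (Trg) loci held 524 of the 337776 open chromatin regions found by ATAC-Seq in any of 4 mouse libraries. Members were chosen by position. Peaks of the 4 libraries that overlapped by at least 1 bp were merged into regions, and regions on the autosomes and X that fell in 5 windows of the mm10 build were kept: Igh on chr12:113250000-116050000, Igk on chr6:67550000-70750000, Igl on chr16:19020000-19270000, Trb on chr6:40880000-41570000 and Trg on chr13:19170000-19370000. No measured height entered the choice.

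ATAC-Seq marks DNA that the Tn5 transposase can reach. The cells were sorted from bone marrow, and the labels call them long-term hematopoietic stem cells (HSCs) while the study's text calls the sorted cells HSPCs, a term that takes in progenitors as well. Which of the names holds cannot be told from the lists. They came from mice on a C57BL/6, CD45.2 background, and both genotypes carried the floxed Cpt1a allele. The 2 control libraries came from Cpt1a fl/fl mice, which the labels call WT, and the 2 KO libraries from mice in which Vav1-Cre removes Cpt1a throughout the hematopoietic system, so every blood lineage and not the stem cell alone carried the deletion. CPT1A carries long-chain fatty acids into mitochondria. The mice of the study were adults of both sexes unless stated otherwise. Nothing states that the libraries of a genotype came from separate animals, so a p-value here measures only the spread between these libraries. The lists carry peaks without read counts and the depth is unknown.

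An antigen receptor gene does not exist in working form in the germ line. In developing B and T cells, the RAG recombinase joins a variable (V), in some loci a diversity (D), and a joining (J) segment in front of a constant (C) gene, and this is preceded by opening of the segments and by the action of enhancers that lie between J and C or beyond the last C gene. Stem cells carry these loci unrearranged, while lymphoid progenitors can have begun to join them, and the regions described here are the stretches of them that were reachable in these cells.

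The label was checked on promoters of marker genes, from 250 bases before to 50 bases after the gene's start. All 9 stem and progenitor markers with a promoter in the table used, among them Kit, Hlf, Meis1, Cd34, Procr and Flt3, had a region in all 4 libraries. The highest fold of this list was at Flt3 (19.1 in KO 1). The list mixes stem and progenitor genes, so it cannot tell the label's name for the cells from the study's. In the B lineage list this held for 3 of 7 (Cd79a, Pax5 and Rag1, the highest fold of the list being 4.50), while Ebf1, Vpreb1 and Rag2 had none. In the T lineage list it held for Tcf7 alone, 1 of 9, and 6 of 9 (Cd3e, Cd3d, Cd8a, Bcl11b, Themis and Cd247) had no region in any library. Summed over the list, the B lineage folds were 10.8 and 9.81 in control and 13.7 and 13.8 in KO. The myeloid folds were 9.49 and 10.9 in control and 14.1 and 12.5 in KO, so both sums were higher in both KO libraries. A promoter without a peak added nothing to a sum, and Igll1 had none in control 2 and Elane none in control 1. At Cd79a, Pax5 and Rag1 the genotypes overlapped. Itgam was higher in both KO libraries (6.16 and 4.42 in control, 7.95 and 6.74 in KO). Mpo overlapped (3.34 and 4.74 in control, 3.25 and 3.70 in KO). The T lineage sums were 11.2 and 13.2 in control and 9.92 and 12.5 in KO and overlapped, and the erythroid list had 1 promoter with a region, Epor, in control 1. The part of other cells in the results was not tested, and in a bulk library fewer cells with an open site and less access per cell cannot be told apart. The promoter of Cpt1a was open in all 4 libraries, which does not check a deletion elsewhere in the gene.

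Only 2 of the 26 promoters of other genes that the RefSeq table lists within the windows lay under a region held by all 4 libraries, and both are in Igh. They are shown because they are the places in the loci where the sequence under a region of all 4 libraries can be read from the table. V segments have no promoter in it. Both are on the plus strand of GRCm38.p6, in lower case, with any match to the octamer ATGCAAAT of V promoters, the heptamer CACAGTG of recombination signals or the E-box CAGCTG in capitals, searched on both strands.
Gm40899, chr12:114764158-114764457: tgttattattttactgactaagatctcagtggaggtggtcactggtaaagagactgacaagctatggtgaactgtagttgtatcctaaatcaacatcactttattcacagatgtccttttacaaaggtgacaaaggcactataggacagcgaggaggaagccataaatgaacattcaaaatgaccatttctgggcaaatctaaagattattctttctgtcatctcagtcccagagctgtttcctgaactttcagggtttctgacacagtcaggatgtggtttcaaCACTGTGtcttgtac
Zfp386, chr12:116047474-116047773: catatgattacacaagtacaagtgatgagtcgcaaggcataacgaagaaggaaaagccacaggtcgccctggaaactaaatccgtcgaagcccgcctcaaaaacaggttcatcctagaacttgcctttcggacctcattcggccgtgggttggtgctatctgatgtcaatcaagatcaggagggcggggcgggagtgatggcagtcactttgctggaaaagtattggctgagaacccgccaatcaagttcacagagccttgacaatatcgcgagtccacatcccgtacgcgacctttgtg
Gm40899 is a gene model inside the V domain, and the region that covered its 300 promoter bases was 942 bp wide and also overlapped Ighv1-23. The fold is the authors' ratio of the signal at a summit to its library's background. It was 5.43 in control 1, 6.71 in control 2, 7.77 in KO 1 and 4.67 in KO 2. Its promoter held 1 heptamer, read on the minus strand, and none of the other motifs. The heptamer, chr12:114764443-114764449, ends at the base before Ighv1-23 (chr12:114764450-114764743), with 0 bases between them, on the side where the recombination signal of a V segment is known to lie. Zfp386, a zinc finger gene at the far edge of the V domain, had the highest fold of any region that all 4 libraries held in the 5 loci, at 21.1 and 22 in control and 22 and 20.5 in KO, and none of the 3 motifs. Of 32851 promoters in the table, 1.74% held the octamer, 6.81% the heptamer and 16.3% the E-box.

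The loci differed in how much of them was open. Trg had 16 regions per 100 kb in any library, Trb 12.5, Igh 11.5, Igk 2.53 and Igl 1.2. Counting only regions held by all 4 libraries, the order was Trg with 6 per 100 kb, Trb with 3.48, Igh with 2.68, Igk with 0.344 and Igl with 0. In the single libraries (control 1, control 2, KO 1 and KO 2), Igh held 158, 166, 161 and 174 regions. Igk held 32, 22, 32 and 48, and Igl 2, 2, 2 and 3. Trb held 47, 46, 47 and 45, and Trg 20, 17, 18 and 21. The order Igh, Trb, Igk, Trg, Igl by number was the same in 3 libraries, while in KO 2 Igk (48) passed Trb (45).

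**Figure D1:**
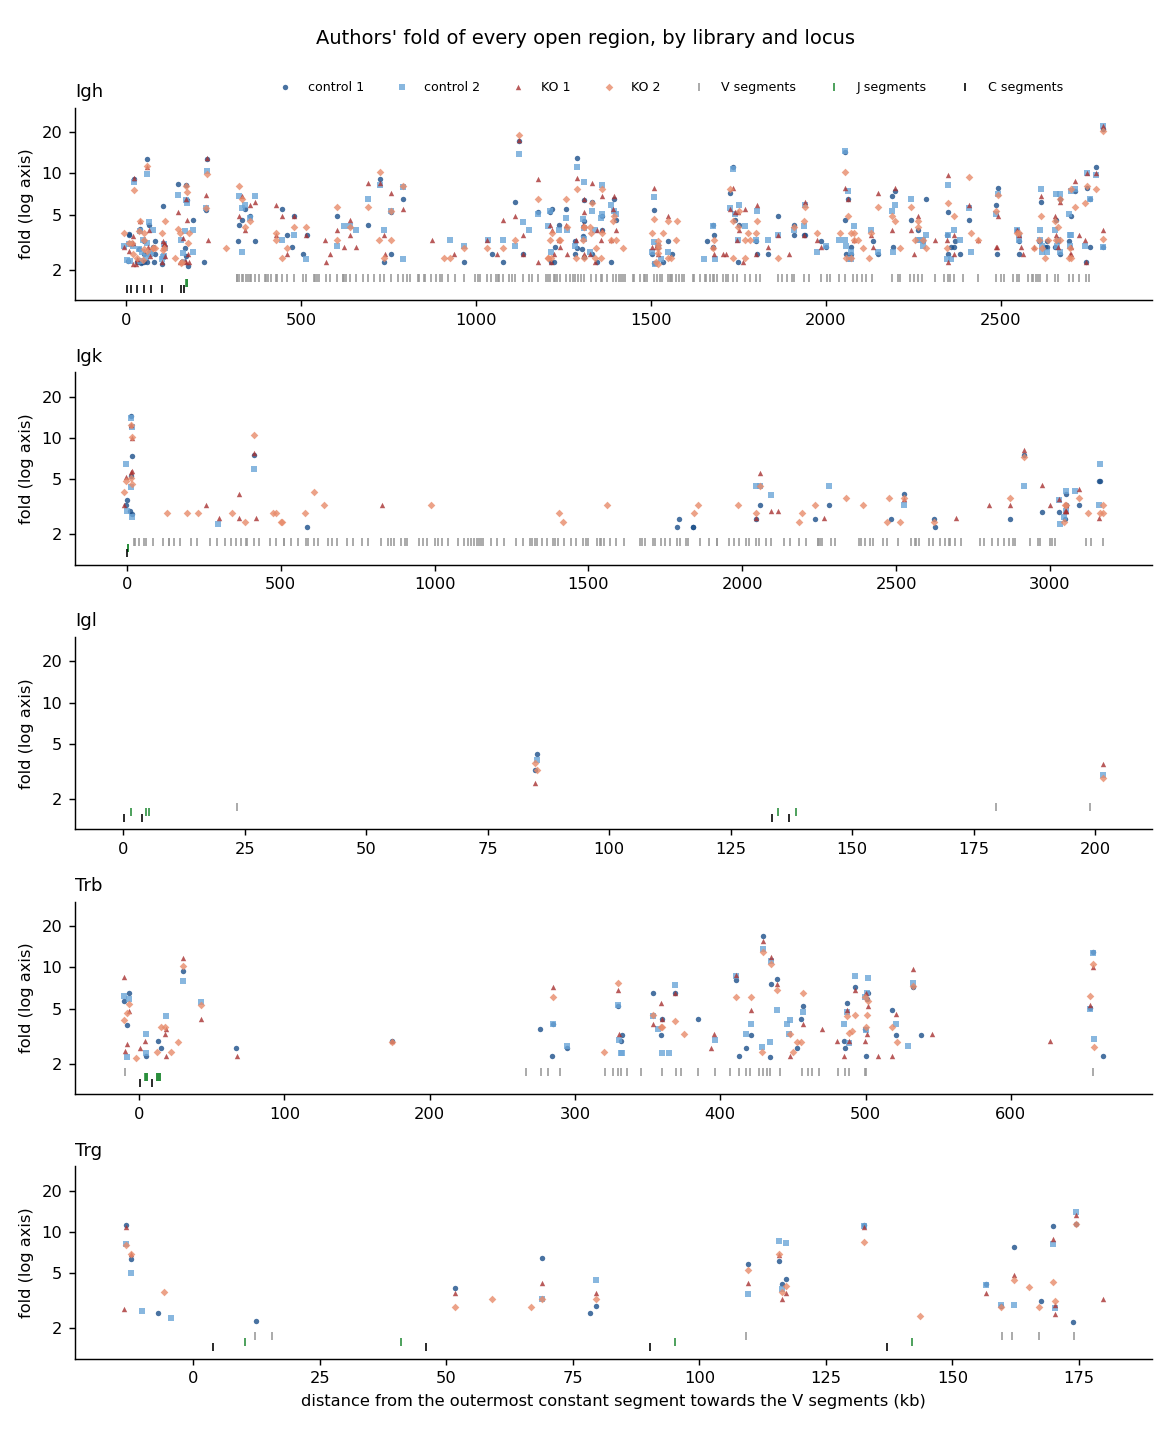
Fold of every region of the 5 loci (log axis) against the distance in kb from the outermost constant segment towards the V segments, one point per library that held the region, with ticks for the V, J and C segments under the points. Igh points run along the whole locus, and Igl shows 3 regions only. Of the 81 Igk regions 72 lie thinly spread in the V domain, while those just in front of the J segments stand close together.

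Most members were weak and belonged to 1 library. Of the 524 regions, 288 (55.0%) were held by a single library, against 59.3% over all regions of the series, and 122 (23.3%) by all 4, against 23.8%. Regions held by all 4 had a median width of 356 bp and those of 1 library 88.5 bp. Over the 122 shared regions the median fold was 5.43 in control 1, 5.47 in control 2, 5.27 in KO 1 and 4.89 in KO 2. Shared regions elsewhere in the genome had medians of 6.10, 6.18, 5.86 and 5.41, so the shared members were lower than other shared regions in each library.

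The ladder on which the folds fell limits what can be told from weak regions. In each list 75.5% to 82.8% of the members' folds were whole multiples of one step (within 0.02 of a step), and the step was 0.325 in control 1, 0.297 in control 2, 0.326 in KO 1 and 0.407 in KO 2. KO 2 thus had the coarsest scale. Regions of 1 library stood at a median of 8, 9, 8 and 7 steps, and shared regions at 17, 18.5, 16 and 12.

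**Figure D2:**
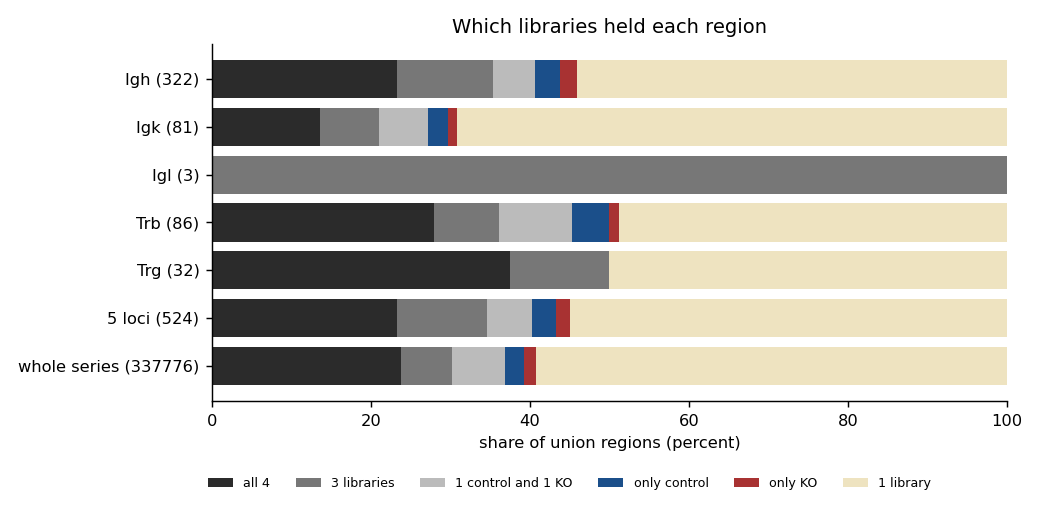
Share of union regions in percent by the libraries that held them, for each locus, the 5 loci together and the whole series, with the number of regions in brackets. The bars of the 5 loci and of the whole series are alike in the share held by all 4 (23.3% and 23.8%), and Igk has the largest share held by 1 library among the loci (69.1%).

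In Igh, open regions lay along the whole V array. The V domain, from the first to the last annotated V segment, is 2437 kb long and held 230 regions, of which 63 were in all 4 libraries. Taken from the J side in stretches of 500 kb, the mean over libraries was 4.15 ± 0.57 regions per 100 kb (SD, n = 4) in the nearest, then 4.60 ± 0.33, 6.15 ± 1.28, 4.80 ± 0.77 and, in the last 437 kb, 6.81 ± 0.54. The farthest stretch was higher than the nearest in every library (30, 33, 28 and 28 regions in 437 kb against 19, 19, 25 and 20 in 500 kb). Of the 63 shared regions, 31 (49.2%) overlapped a V segment. A region of their median width (304 bp) would touch a V segment at 4.72% of the positions in the domain. Of the other 32, 22 lay nearest to a V segment on its 5′ side and 10 on its 3′ side. An overlap could be at the 3′ end of a segment alone, so the count of overlaps does not place them at the 5′ end. Counted upstream from the segment's 5′ end, the midpoints of all 31 ran from -616 bp to -89 bp. All of them thus lay on the 3′ side of that end. At Ighv5-9-1 the region was chr12:113735968-113736129 and the segment chr12:113736113-113736406, which reads towards lower coordinates. The region at Ighv1-54, chr12:115193590-115194169, covered its whole segment.

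Some shared regions off the segments lay at a like distance from V segments of the Ighv1 family, the largest of the locus. It makes up 92 of the 184 V segments of Igh, pseudogenes included. A set of 7 began between 3429 and 3669 bp upstream of the nearest V segment, and in all 7 that segment was an Ighv1 member: Ighv1-9, Ighv1-14, Ighv1-46, Ighv1-54, Ighv1-78, Ighv1-81 and Ighv1-83 (chosen after their values were seen). The one upstream of Ighv1-83, chr12:115967627-115967812, had folds of 7.47 and 7.71 in control and 8.80 and 5.70 in KO. The one upstream of Ighv1-54, chr12:115197405-115197577, had 3.57 and 5.93 in control and 6.19 and 5.70 in KO, and the genotypes overlapped at both. With regions of any library, 23 began between 3 and 4 kb upstream, 21 of them beside Ighv1 segments. Shared regions also lay at other distances upstream of Ighv1 segments, as at Ighv1-67 (839 bp) and Ighv1-49 (4564 bp). A further set lay closer together, at Ighv1-85 (2705 bp), Ighv1-82 (2716 bp), Ighv1-80 (2846 bp) and Ighv1-63 (2890 bp). Most of the 22 shared regions on the 5′ side of a V segment, at any distance, were nearest to an Ighv1 member. Whether the family stands out at this distance was not tested. Segments of this family arose by duplication and resemble each other. How reads of repeats were placed is not given in the sources used here, so values at single copies are uncertain.

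**Figure D3:**
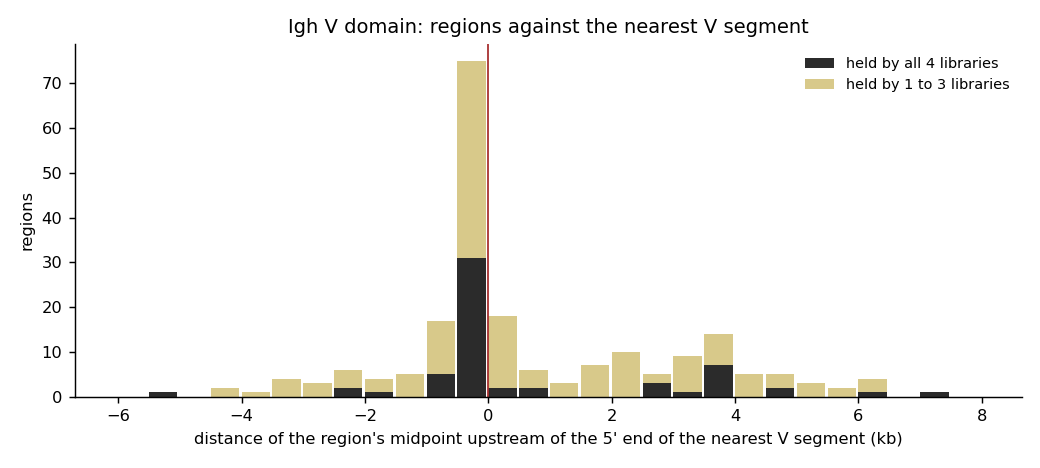
Number of regions of the Igh V domain by the distance in kb of their midpoint from the 5′ end of the nearest V segment (line at 0, upstream to the right), in bins of 500 bp, with shared regions in black and regions of 1 to 3 libraries stacked on them. The tallest bin is the 500 bp on the 3′ side of the 5′ end (31 shared regions, 29 of them on a segment). It reaches past the 3′ end of segments shorter than 500 bp, so it does not place a region at the 5′ end. The next for shared regions is 3.5 to 4.0 kb upstream (7), with 4 shared regions beyond the axis.

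The table splits V segments into genes and pseudogenes. In Igh, 26 of 121 V segments (21.5%) overlapped a region of all 4 libraries, as did 5 of 63 pseudogenes (7.94%). Per library the V segments with a region were 36, 38, 39 and 37 of 121, and the pseudogenes 8, 8, 10 and 11 of 63. Among Igh families the share with a shared region was 16 of 92 for Ighv1, 3 of 21 for Ighv5, 2 of 16 for Ighv8, 2 of 11 for Ighv2, 1 of 7 for Ighv6 and 0 of 8 for Ighv3. In Trb, 9 of 22 V segments (Trbv1, Trbv2, Trbv3, Trbv12-1, Trbv12-2, Trbv19, Trbv20, Trbv24 and Trbv31) and 0 of 13 pseudogenes overlapped a shared region. In Igk it was 2 of 102 V segments (Igkv8-21 and Igkv10-95) and 0 of 60 pseudogenes, in Trg 3 of 7 (Trgv3, Trgv6 and Trgv7), and in Igl 0 of 3. Segments of 1 locus share sequence and neighbours, and no test was made on these counts.

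The strongest region of the Igh V domain lay on no segment. It spanned chr12:114378511-114379683, 11.7 kb beyond Ighv12-3, with folds of 17.2, 13.7, 17.6 and 19.0 in the 4 libraries. Both KO libraries were above both controls, KO 1 by less than the gap between the controls.

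Near the J and D segments of Igh, several shared regions lay where regulatory elements are known. The intronic enhancer Eμ sits between the last J segment and Ighm, the gene of the IgM constant region. A region there, chr12:113427356-113427654, 860 bp from Ighj4, had folds of 8.28 in control 1, 6.43 in control 2, 6.56 in KO 1 and 8.04 in KO 2. The region over Ighd4-1, the D segment next to the J cluster (chr12:113430380-113430693), had 6.46 and 6.04 in control and 4.61 and 7.29 in KO. Neither separated the genotypes.

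The V side of the D cluster is known for a CTCF-bound insulator that keeps V segments out of early joining. It held a pair of shared regions beyond Ighd1-1, a D segment towards the V side of the cluster. The first, chr12:113485211-113485388, 3.02 kb from Ighd1-1, had folds of 5.43, 5.60, 7.0 and 5.61, with KO 2 level with control 2. The second, chr12:113487520-113488207, 5.33 kb from it and 1.36 kb from the Adam6b gene model, had 12.7, 10.5, 12.9 and 9.89, which made it one of the 3 strongest of the locus by its lowest percentile.

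Among the C genes, which encode the antibody classes and lie in a row behind Ighm, 5 more regions were shared. The strongest, chr12:113314296-113315107, lay 6.36 kb on the 5′ side of Ighg2b, with folds of 12.7, 9.83, 11.1 and 11.4. The one at chr12:113277736-113278386, 4.49 kb on the 5′ side of Ighe, had 9.03, 8.62, 9.26 and 7.59. The one at chr12:113296015-113296897, 7.08 kb on the 5′ side of Ighg2c, had 3.95, 3.84, 4.49 and 4.48, and chr12:113362347-113362660, 1.12 kb on the 5′ side of Ighg3, had 5.84, 2.48, 3.24 and 2.76. Each of these Ig genes is preceded by a germline promoter and a repetitive switch region, which class switching uses. The region 3802 bp on the 3′ side of Ighd (chr12:113402785-113403733) was the one of the 5 with the largest gap between genotypes, at 8.42 and 7.0 in control against 5.21 and 3.97 in KO. These values did not overlap, and with 2 libraries against 2 an exact two-sided permutation test cannot give a p below 0.333.

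Most regions at the C end of Igh were weak. From the window edge to the last J segment (180 kb) there were 14.5, 16.7, 13.9 and 15.0 regions per 100 kb in the 4 libraries, 2.86 ± 0.26 times the density of the V domain (SD, n = 4). But 62 of the 77 regions there were held by 1 library, at a median fold of 2.70 and a highest of 3.85, and 6 (7.79%) by all 4. By shared regions alone the C end had 3.34 and the V domain 2.59 per 100 kb, a ratio of 1.29. From the J to the V segments, over the D cluster (143 kb), the density was 0.765 ± 0.076 times that of the V domain. By shared regions alone, of which this interval held 3, the ratio was 0.811. Among stronger peaks the density there was above that of the V domain. It was 1.40 ± 0.35 times with a −log10 q of 5 or more and 1.36 ± 0.26 times with the 100000 strongest summits (SD, n = 4). The ratio of the C end fell to 1.48 ± 0.22 and 1.63 ± 0.43 at these settings. On the 5′ side of the C genes there were 53 of the 77 (68.8%), in stretches that make up 77.1% of the length of this end, with 10 each ahead of Ighg2b and Ighg3, 9 ahead of Ighg2c, 8 ahead of Ighg1 and 7 ahead of Igha. The 10 ahead of Ighg3 lay in a stretch of 46.3 kb that runs up to Ighd and takes in the shared region 3802 bp from it. Of the 8 ahead of Ighg1 and the 7 ahead of Igha, all were held by 1 library.

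**Figure D4:**
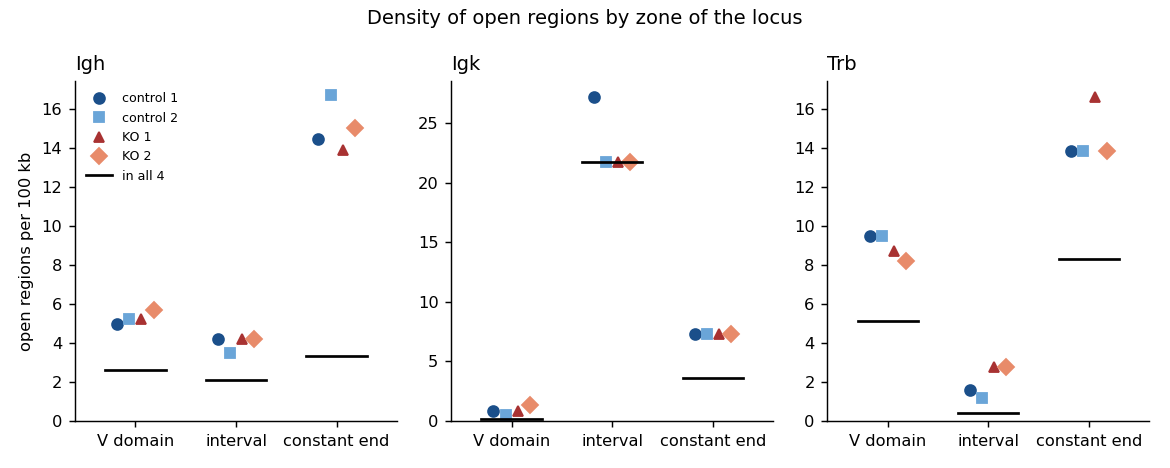
Open regions per 100 kb in the V domain, the V to J interval and the constant end of Igh, Igk and Trb, one symbol per library, with a black line for regions held by all 4. In Igk the interval stands at 21.8 to 27.2 per 100 kb and the V domain at 0.508 to 1.3, and in Igh the gap between the constant end and the V domain narrows for shared regions.

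Igk differed from Igh in layout, with few regions in a long V array and a cluster of strong sites in front of the J segments. The V domain of 3149 kb held 72 regions, 54 of them in 1 library and 6 in all 4, and no shared region lay in the 1634 kb between Igkv10-95 and Igkv8-21. Per library it had 0.794, 0.508, 0.826 and 1.3 regions per 100 kb. The 149 kb at the far end from the J segments was the densest stretch, with 5.05 ± 0.39 regions per 100 kb (SD, n = 4). The best shared region on a V segment, Igkv8-21 (chr6:70314745-70315110), had folds of 7.47 and 5.93 in control and 7.82 and 10.6 in KO, higher in both KO libraries.

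The 18.4 kb between the last V segment and the first J segment is known to hold the Cer and Sis elements, which bind CTCF and Ikaros and restrain joining to nearby V segments. All 4 shared regions of this interval lay in a span of 5.47 kb, and its density was 30.03 ± 11.14 times that of the V domain. The ratio was 182.0 ± 112.6 with a −log10 q of 5 or more and 242.6 ± 16.5 with the 100000 strongest summits (SD over libraries). Even in the full lists the V domain held only 25, 16, 26 and 41 regions per library, so these ratios divide by small numbers. The strongest, chr6:70714178-70714672, 7.89 kb before Igkj1 and inside the Gm46961 gene model, had folds of 14.4 and 14.0 in control and 12.4 and 12.4 in KO. The next, chr6:70709199-70709677, 5.02 kb beyond Igkv3-1, had 7.43 and 12 in control and 10.02 and 10.1 in KO. A weaker region between them, chr6:70713238-70713546, had 5.32, 4.43, 5.70 and 5.13. Only the region at chr6:70709788-70709957, beside the second of these, was higher in both KO libraries, at 5.80 and 4.61 against 2.82 and 2.68, and the strongest region was higher in both control libraries. Neither difference can pass a test over 2 and 2 libraries.

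The J to C end of Igk, which holds the intronic enhancer and, downstream of Igkc, the 3′ enhancers that act in B lineage cells, was weak. In the intron, 338 bp before Igkc, a region at chr6:70725763-70726097 was found in both control libraries (3.57 and 2.97) and in no KO library. Downstream, chr6:70730871-70731209, 4.12 kb beyond Igkc in the Gm30211 gene model, was shared, with folds of 3.25, 6.52, 5.21 and 4.89. Farther on, 8.90 kb beyond Igkc, chr6:70735655-70735871 was found in both KO libraries (3.26 and 4.07) and in no control library. These were the only 3 regions of this end, and each library held 2 of them.

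Igl, the small light chain locus, held 3 regions, each missing from 1 library, with folds between 2.61 and 4.22. A pair lay 48.4 and 48.1 kb from the Iglc4 pseudogene and the third 2.50 kb from Iglv2, and none overlapped a V, J or C segment.

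In Trb, the V domain from Trbv1 to Trbv30 (391 kb) was the most open of the 3 long V arrays, with 9.47, 9.47, 8.70 and 8.19 regions per 100 kb and 20 shared regions. Trbv12-2 (chr6:41118113-41118946) led, with folds of 16.9 and 13.7 in control and 15.6 and 13 in KO. Trbv1, which lies apart from the other V segments (chr6:40890966-40892115), had 12.9 and 12.6 in control and 10.03 and 10.6 in KO, so both control libraries were higher.

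The 252 kb between the V segments and the J segments, filled by trypsinogen genes, had few regions. Its density was 0.238 ± 0.107 times that of the V domain, and no shared region lay in the 255 kb before the one at chr6:41518033-41518390. That region, 3.39 kb from Prss2 and 14.8 kb from Trbd1, was strong, with 9.42 and 8.01 in control and 11.7 and 10.2 in KO, so both KO libraries were higher. The promoter of Prss2 itself lay under a region of KO 2 alone.

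Beyond Trbc2, the last C gene, lies the enhancer Eβ, on which joining and expression of the locus depend. A region 6.18 kb beyond Trbc2, chr6:41554363-41555278, had folds of 6.50, 5.91, 4.84 and 5.45 and was the widest of that end at 916 bp. Both control libraries were higher than both KO libraries. Also shared were chr6:41556497-41556683 (3.81, 2.23, 2.75 and 4.67) and the region at Trbv31, the inverted V segment behind the C genes (chr6:41558340-41558632), with 5.67, 6.21, 8.51 and 4.18. The constant end of Trb had 1.63 ± 0.21 times the density of the V domain.

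Trg has its V segments between several J to C units, so it has no single V domain. The strongest region lay over Trgv7 (chr13:19177688-19178135), with folds of 11.4 and 13.9 in control and 13.2 and 11.5 in KO. Enhancers are known to lie 3′ of the constant genes of this locus. A region 2.57 kb beyond Trgc1, chr13:19219186-19220333, had 11.22 and 10.99 in control and 10.96 and 8.50 in KO, and at 1148 bp it was the widest of the named regions of Trg. Within 10 kb beyond Trgc3 there was 1 shared region, and within 10 kb of Trgc2 and Trgc4 there was none. Stard3nl, a neighbouring gene in the window, had 11.2, 8.15, 10.8 and 8.03 (chr13:19365555-19365925).

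**Figure D5:**
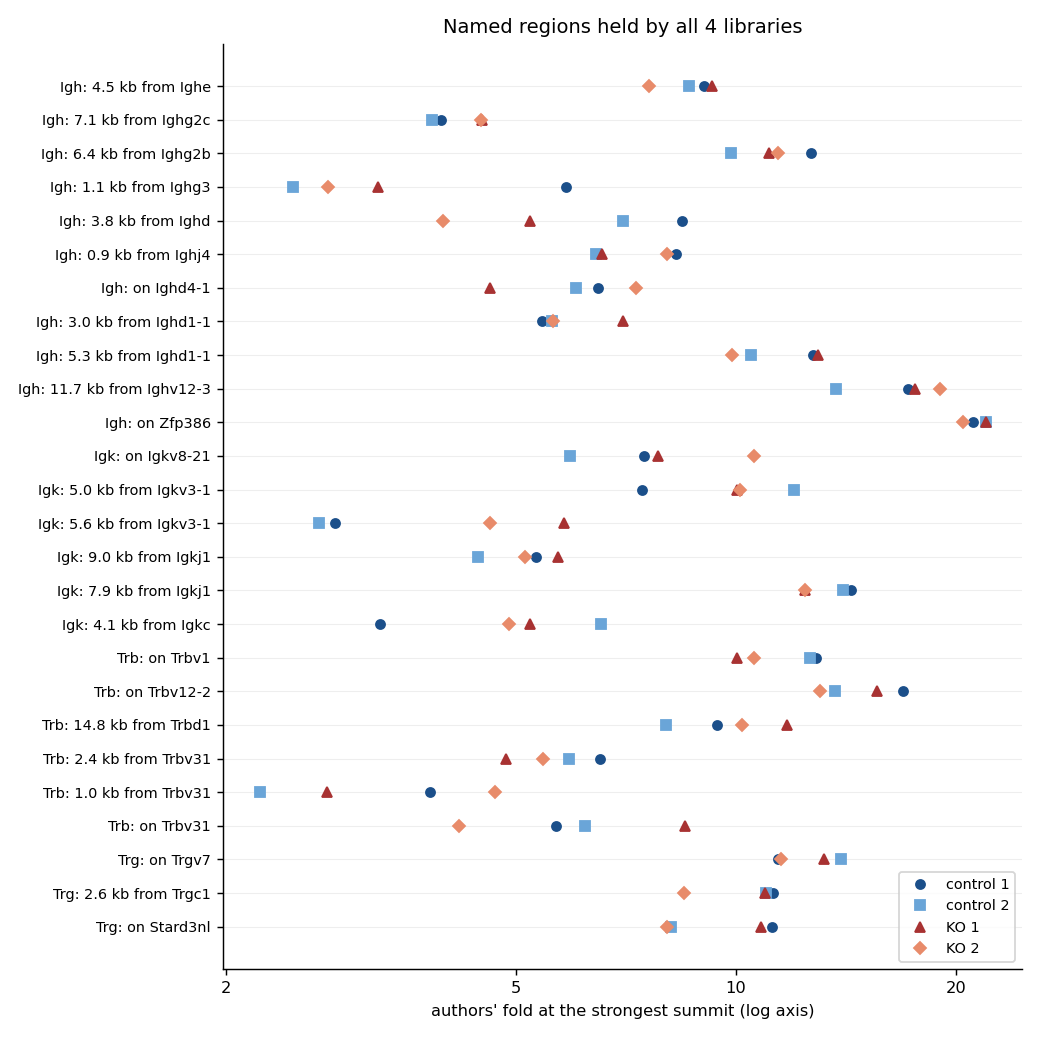
Fold at the strongest summit (log axis) of the named regions that all 4 libraries held, one symbol per library, labelled by locus and nearest segment or gene. The genotypes overlap at 15 of the 26 regions, Zfp386 is the highest at 20.5 to 22, and the region 3.8 kb from Ighd is lower in both KO libraries.

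The genotypes were compared by the share of a library's regions that fell in the 5 loci. It was 0.150% and 0.165% in control and 0.154% and 0.178% in KO, a mean of 0.158% ± 0.011 against 0.166% ± 0.017 (SD, n = 2 each). The difference of 0.00835 percentage points was smaller than the spread in KO, with an exact two-sided permutation p of 0.667 (smallest possible 0.333). By locus the same test gave p of 0.667 for Igh, Igk and Trg and of 1 for Igl and Trb. Without KO 2 the difference was -0.00453 percentage points. In Igk, 31 of the 48 regions of KO 2 were its own, with a median fold of 2.85 and a highest of 4.07, against 10, 4 and 11 such regions in the other 3 libraries.

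Among the 26 named regions that all 4 libraries held, the folds of both KO libraries were above both controls at 6 and below both at 5. Over all shared regions of the series the percentages were 12.3% and 26.2%. The height of shared regions over the loci separated the genotypes in opposite directions or not at all, depending on the setting. As a percentile of all folds in the same list, the median of the 122 shared members was 73.8 and 72.6 in control and 73.6 and 70.4 in KO, a difference of -1.17 with p = 0.667 by the exact permutation test. Without KO 2 it was 1.18. Both KO medians stood above both controls with lists of equal length (a difference of 1.78), with the 100000 strongest summits (4.45) and where a peak had to cover 0.5 of the region (3.11), and below both with windows around summits (-1.90), each at the smallest p of the exact permutation test, 0.333. Member by member, the percentiles of both KO libraries stood above both controls at 28 of the 122 (23.0%), where 14.8% of shared regions in the series did, and below both at 19 (15.6%), where 22.9% did. Regions of a locus share their libraries, and these counts were not tested.

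Regions of 1 genotype were few. Both control libraries and no KO library held 16 of the 524 (3.05%), against 2.46% of all regions, and both KO libraries and no control library 9 (1.72%), against 1.41%. They stood at medians of 9 to 10.5 steps, near those of regions of 1 library, and 12 of the 16 and 6 of the 9 lay in a V domain. Most members lay there: of all 524, the V domains of Igh, Igk and Trb held 230, 72 and 62. Of the 16, 6 overlapped a V segment, and of the 9, 4 did. Among all 230 regions of the Igh V domain alone, a different set, 70 did (30.4%), so the shares are not of like sets.

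The strongest of the control regions lay 838 bp beyond Ighv1-86, the last V segment (chr12:116010792-116011312), with folds of 6.50 and 6.52 and −log10 q of 10.4 and 11.3. In Igh, control regions also overlapped Ighv1-7 (3.25 and 2.97), Ighv8-7 (2.92 and 2.97) and Ighv1-78 (3.25 and 3.85). Others lay near Ighd3-2 (4.55 and 3.85), Ighv1-23 (2.25 and 3.19), Ighv1-41 (2.92 and 4.15), Ighv1-58 (4.55 and 3.26), Ighv1-62-2 (2.92 and 2.67) and Ighv1-68 (2.92 and 2.37). In Trb they overlapped Trbv12-1 (2.24 and 2.87), Trbv23 at a pair of sites (3.25 and 2.37, 2.92 and 2.37) and Trbj2-5 (2.27 and 3.26), and in Igk, beside the intron region above, 1 lay 7.99 kb from Igkv15-103 (3.25 and 4.45).

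The strongest of the KO regions overlapped Ighv2-5 (chr12:113685348-113685532, 5.86 in KO 1 and 3.67 in KO 2) and Ighv1-14 (chr12:114646485-114646654, 5.54 and 4.48). The others in Igh overlapped Ighv10-2 (2.93 and 3.26) and Ighv1-70 (3.26 and 3.26) or lay near Ighd4-1 (2.28 and 3.67), Ighv1-7 (3.26 and 2.44) and Ighv1-76 (2.93 and 2.85). In Trb 1 lay 2.96 kb before Trbd1 (3.26 and 3.67). Ighv1-7 thus had a control region on the segment and a KO region 3.45 kb upstream.

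With a −log10 q of 5 or more, 134 regions were left in the loci, of which 10 were only in control, against 5.58% of all regions at this setting, and 4 only in KO, against 0.642%. This setting was passed by 42.5% and 46.8% of the summits in control and by 40.5% and 35.1% in KO. It thus kept a smaller part of the KO lists. With only the 100000 summits of highest −log10 p of each library, the order of the counts turned. Of 119 regions left in the loci, 3 were only in control, against 2.21% of all regions at this setting, and 11 only in KO, against 2.49%. At 10 of the 11 the full list of a control library held a peak, and at 9 those of both. At 2 of the 3 the full lists of both KO libraries held a peak. The weakest summit kept had a −log10 p of 9.04 and 9.46 in control and 7.997 and 6.32 in KO, so the cut reached weaker peaks in the KO lists. Among the 11 were the Igk interval region beside Igkv3-1, a region near Trbv28 (3.90 and 3.85 in control, 7.17 and 6.11 in KO) and one near Ighv1-62-1 (2.67 in control 2, 7.17 and 5.70 in KO), chosen after their values were seen. The region beyond Ighv1-86 was only in control with all peaks and with the strongest summits, and the one at Ighv1-14 only in KO with both.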

How the data were processed

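ATAC-Seq peak lists of 4 libraries (control 1 and 2, KO 1 and 2, replicate numbers from the labels) were used. Per the labels, the submitters' processing notes name Bowtie2, MACS2 and mm10, and versions and parameters are not given in the sources used here. The authors called peaks per library and deposited 1 row per summit, with the fold of signal over background and the −log10 p and −log10 q. No other scaling between the deposited lists is stated. The lists hold no counts, so no count model was possible, and depth is unknown.

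Merging used pandas 2.3.3 and numpy 2.4.6 under Python 3.11.15. A region took the fold of its strongest summit in each library. Segments and genes came from the RefSeq table of GRCm38.p6, the assembly that mm10 names, with promoters credited to RefSeq. The V domain of Trb was taken from Trbv1 to Trbv30, without the inverted Trbv31, and no zones were set in Igl and Trg. The planned search of V segment promoters could not be made, since the table lists none.

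Groups were compared by exact two-sided permutation over libraries. Named are, in each locus, the 3 regions whose lowest fold percentile over the libraries was highest, every region of 1 genotype, and every region of all 4 libraries at the J to C end or, added, in the V to J interval, each with its nearest segment. Members and lists were chosen with earlier results of these data known. The merging was tested on simulated data. Alternatives were a −log10 q of at least 5, lists cut to equal length (240881 summits) or to 100000 summits, a peak covering at least 0.5 of its region, 200 bp windows either side of summits, narrower loci, V domains left out, bases in place of regions, any overlap with a zone, a replicate block and leaving out each library.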

Additional observations from a re-analysis of the deposited data

How the results depend on the processing

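Of 106 repeats under the alternatives, 77 kept the direction or stayed near the value, 6 turned the direction and 23 moved a count or ratio. The share of regions in the loci (KO minus control, 0.00835 percentage points) turned to -0.00373 under the q setting (−log10 q at or above 5) and ranged from -0.00453 to 0.0199 on leaving out a library. The median percentile of shared regions (-1.17) turned to 1.78 with lists of equal length, 4.45 with 100000 summits and 3.11 with 0.5 of the region covered, and ranged from -3.65 to 1.18 on leaving out a library. With a replicate block the differences were 0.00835 and -1.17, with p = 0.5, the smallest an exact permutation within 2 pairs can give, and 2 pairs cannot show whether the numbers pair the libraries. Regions only in KO (9) were 4 under the q setting and 3 without V domains, and those only in control (16) were 10, 4 and, with 100000 summits, 3. Leaving out a library gave 21 to 108 only in KO and 28 to 85 only in control, since 3 libraries ask less of a region.

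Of the densities against the V domain, that of the Igh constant end (2.86) was 1.48 under the q setting, 2.42 with lists of equal length and 1.63 with 100000 summits, ranging from 2.83 to 2.96 without a library. The Igh interval (0.765) was 1.40 and 1.36 with the q and the 100000 summit settings (0.750 to 0.786 without a library). The Igk constant end (9.49) was 33.5 ± 24.1 (SD over libraries) with 100000 summits (7.87 to 10.5 without a library). The Igk interval (30.03) was 182.0 ± 112.6 with the q setting and 242.6 ± 16.5 with 100000 summits (25.8 to 33.6 without a library). The Trb constant end (1.63) was 1.41 with the q setting and 1.89 with 0.5 of the region covered (1.54 to 1.69 without a library). The Trb interval (0.238 ± 0.107, SD over libraries) moved by less than that SD. It was 0.179 with the q setting and 0.155 with 100000 summits (0.204 to 0.276 without a library). The cause of these moves was not tested. The step of the folds limits what weak regions can show, and how reads in repeated V segments were placed is not given in the sources used here.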

Other observations

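Beyond the 3′ edge of the Igh window, the stretch known for the 3′ regulatory region, which acts on the C genes in mature B cells, held 7 regions of all 4 libraries within 60 kb. The strongest, chr12:113222103-113223048, 33.2 kb beyond Igha, had folds of 7.02 in control 1, 7.48 in control 2, 7.68 in KO 1 and 6.09 in KO 2. The one at chr12:113217390-113218207, 38.0 kb beyond Igha, had 5.71, 6.39, 6.04 and 6.32. The farthest, chr12:113205497-113205826, was lower in both KO libraries, at 4.56 and 4.48 against 6.17 and 6.47. A cluster 35.4 and 36.1 kb beyond Igha had 5.57 and 5.26 against 6.28 and 6.41, and 4.27 and 4.78 against 4.996 and 5.24, higher in both KO libraries. So was chr12:113216030-113216233, 40.0 kb beyond Igha, with 4.37 and 4.18 in control and 4.71 and 5.06 in KO. Over all shared regions of the series, both KO folds were above both controls at 12.3% and below both at 26.2%. None of these differences can pass an exact permutation test over 2 and 2 libraries.

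Beyond the Igk window, 1 region of all 4 libraries lay within 10 kb, at chr6:70752190-70752734, 25.4 kb beyond Igkc. Its folds were 10.7 and 7.71 in control and 8.80 and 6.11 in KO. Within each library, its fold was above that of every region found between the J segments and the window's edge.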
